A study of Mus musculus with 25 samples.

Results

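Chromatin contacts and acetylation coverage were compared between splenic CD8+ T cells that carry a deletion upstream of Il2ra and wild-type (WT) cells. The comparison rests on 4 of the 25 samples of the series, all H3K27ac HiChIP libraries from C57BL/6J mice: WT control, WT with IL-2, upstream deletion control and upstream deletion with IL-2, with 1 library each. The deletion was made by CRISPR editing. The labels give neither its coordinates nor the number of animals behind a library. For CD8+ T cells the labels' protocols describe stimulation for 2 days and a rest of 4 h before IL-2 was added, and the sources used here state neither the dose nor the duration for these libraries. The features were the 39676 pairs of 1 kb bins (loops) listed in all 4 libraries, of 111561 listed in any, and the 23356 bins that served as a loop anchor in all 4, of 42675. No measured difference was used to choose them.

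HiChIP ligates DNA ends that are near each other in fixed nuclei, pulls down the ligated fragments with an antibody and counts read pairs between genome bins. H3K27ac marks active promoters and enhancers, so a count rises with both the mark and the contact. Il2ra encodes the alpha chain of the IL-2 receptor (CD25), which raises the affinity of the receptor for IL-2. In activated T cells, IL-2 signals through the kinases JAK1 and JAK3 to STAT5, which binds enhancers of Il2ra itself, so that the gene takes part in its own induction.

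The Il2ra promoter lay in a bin whose coverage fell in the deletion. The promoters of Igtp and Irgm2, interferon-inducible GTPase genes, lay in bins joined by one of the loops that changed most. The 250 bases before each annotated start are shown, from RefSeq on GRCm38.p6, plus strand, at chr2:11642542-11642791, chr11:58199306-58199555 and chr11:58214727-58214976. Capitals mark 2 motifs searched on both strands, the STAT site TTCNNNGAA and the interferon response element GAAANNGAAA.
Il2ra: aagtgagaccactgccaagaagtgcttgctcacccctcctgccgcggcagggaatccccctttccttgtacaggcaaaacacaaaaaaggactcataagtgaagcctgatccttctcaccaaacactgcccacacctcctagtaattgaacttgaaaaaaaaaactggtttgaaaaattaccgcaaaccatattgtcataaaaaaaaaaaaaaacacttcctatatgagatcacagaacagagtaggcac
Igtp: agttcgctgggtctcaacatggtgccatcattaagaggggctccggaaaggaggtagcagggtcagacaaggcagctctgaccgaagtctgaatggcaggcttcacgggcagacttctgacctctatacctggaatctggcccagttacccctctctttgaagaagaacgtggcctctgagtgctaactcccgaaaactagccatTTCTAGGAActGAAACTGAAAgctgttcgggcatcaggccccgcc
Irgm2: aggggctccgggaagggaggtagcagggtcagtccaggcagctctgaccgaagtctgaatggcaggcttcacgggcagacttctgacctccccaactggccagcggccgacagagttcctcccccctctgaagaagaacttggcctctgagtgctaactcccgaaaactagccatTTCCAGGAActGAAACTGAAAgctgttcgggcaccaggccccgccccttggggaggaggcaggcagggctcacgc
The Il2ra window held no match. The Igtp and Irgm2 windows each held 1 match to each motif, with no shared bases. Of 32851 promoter windows of this length, 7.02% held the STAT motif, 2.98% the interferon motif and 0.332% both. The Igtp and Irgm2 windows shared an identical run of 55 bases. Aligned without gaps at a shift of 30 bases, 60.9% of the 220 overlapping bases were identical. Reads from these paralogs may have been split between them, which was not tested.

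The libraries differed in depth. Listed loops numbered 72698 and 94922 in WT (control and IL-2) and 56113 and 61168 in the deletion, and the median shared loop held 33 to 45 contacts, near the listing limit of 20. Bins at the ends of the T cell genes Cd8a, Cd8b1 and Cd3e were listed in all 4 libraries. The Cd8a bin shared by all had scaled coverage of 349 and 336 in WT and 323 and 347 in the deletion. With the bin at its other end, listed in WT with IL-2 alone, Cd8a reached 1617 there. Cd4 was listed in WT only, with scaled coverage of 275 and 270. Of 11 B cell, 10 NK cell and 13 myeloid markers, 1, 2 and 5 had a listed bin, and of 10 erythroid and 8 gamma delta T cell markers none had. Summed scaled coverage over listed marker bins, which leaves out unlisted bins, of CD4+ and regulatory T cells was 5519 to 6262 in WT and 4776 to 5862 in the deletion. For B cells it was 1133 to 1305 against 1317 to 1548, for NK cells 1090 to 1329 against 1219 to 1569, and for myeloid cells 3385 to 3515 against 2901 to 3292. Of the marker features listed in all 4 libraries, the 1 of B cells, the 1 of NK cells and 2 of 3 of myeloid cells rose in coverage, 1 of myeloid cells fell, and none passed in contacts. Over all gene-end features 22.0% rose and 21.4% fell in coverage, and 2.78% and 1.52% in contacts. Their part in the results below was not tested. In such bulk libraries fewer cells of a type and less signal per cell cannot be told apart.

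Across the genome, coverage differed between the genotypes at many bins by small amounts, and few loops changed. Of the 23356 bins, 9201 (39.4%) passed an adjusted p of 0.05, 4803 (20.6%) higher and 4398 (18.8%) lower in the deletion. The median change among them was 1.17-fold, and 201 bins changed by at least 1.5-fold. Of the 39676 loops, 90 (0.227%) passed, 46 (0.116%) higher and 44 (0.111%) lower. Contacts summed over loops with an anchor at a gene end passed at 130 (4.3%) of 3026 features, 84 (2.78%) higher and 46 (1.52%) lower. These p-values come from edgeR with treatment as a term, which leaves 1 residual degree of freedom. Their spread comes from the gaps between the genotype difference in control and with IL-2, pooled over features, and not from like libraries. Differences between genotypes and between library preparations therefore cannot be told apart. The prior degrees of freedom of this pooling were infinite for loops, 83 for bins and 291 for gene ends. A loop's own gap thus had no weight, and that of a bin or gene end had little. The 54 kb loop from near Nsmce1 to Il4ra passed (edgeR adjusted p = 0.012). Its log2 differences were 0.13 in control and 1.32 with IL-2.

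Without the treatment term no bin, 2 loops and no gene end passed, with 1798, 1378 and 122 at an unadjusted p under 0.05. DESeq2 with the same terms called 2418 bins, 2 loops and 5 gene ends. The loops called by DESeq2 were the rises from H2bu2 and from the Igtp start bin described below. The genotype difference in control and with IL-2 had the same sign at 77.8% of bins and 56.3% of loops. Across bins the Pearson correlation of these differences was 0.788, and across loops 0.195. These describe features within the same 4 libraries, which share depth and preparation and are not independent.

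**Figure D1:**
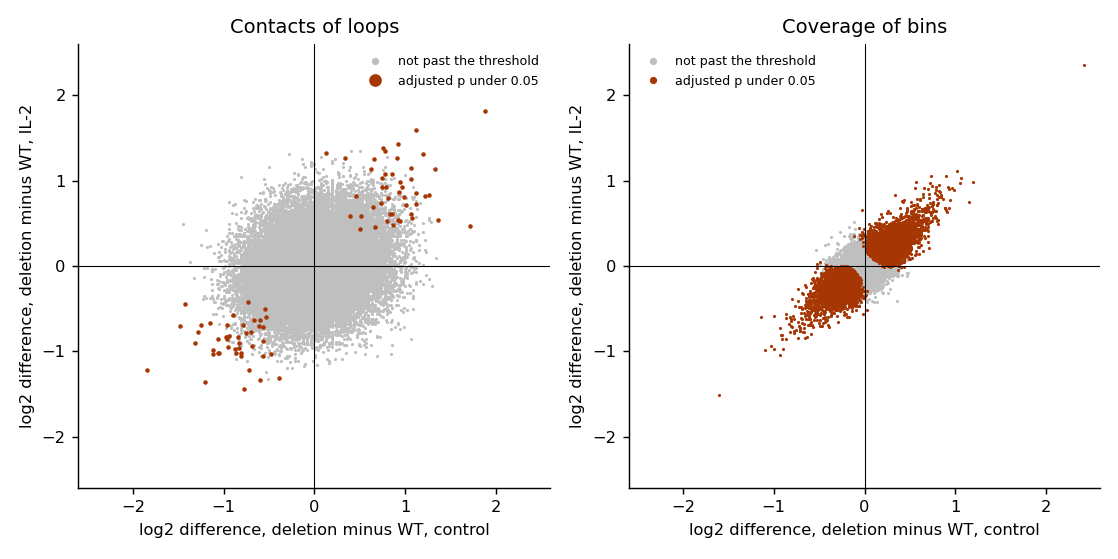
Genotype difference (log2, deletion minus WT, scaled for depth) in control libraries on the x axis and in IL-2 libraries on the y axis, for contacts of shared loops (left) and coverage of shared bins (right), 1 point per feature, with features past an adjusted p of 0.05 in brown. The bins lie along the diagonal (Pearson correlation 0.788) and the loops form a round cloud (0.195), with 90 called loops towards the corners.

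At the Il2ra locus, a stretch upstream of the gene was listed in WT and not in the deletion, and coverage fell on both sides of it. Il2ra spans chr2:11642792-11693194 (GRCm38, 1-based). The 14 bins at chr2:11617001-11631000, between Rbm17, a splicing factor gene, and the Il2ra promoter, were all listed in WT with IL-2 and 13 of them in WT control. No bin of the run was listed in either library of the deletion. The highest of them in WT, the bin 23 kb upstream of the promoter bin, had scaled coverage of 2262.5 in control and 3250 with IL-2. The bin just beyond the run, 26 kb upstream, had 1793 and 2668 in WT, was unlisted in the deletion control and had 735.5 in the deletion with IL-2. The sources used here do not say whether this run is the deleted segment, and an unlisted bin is one without a listed loop, not one without reads.

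Between the run and the promoter, the 5 shared bins all fell, by 0.41 to 0.66 on the log2 scale. The bin 5 kb upstream had scaled coverage of 3273 and 4137 in WT (control and IL-2) and 2483 and 3094 in the deletion, so that both deletion values lay below both WT values (log2 −0.41, SE 0.04, adjusted p = 2.7e-12). The promoter bin had 3792.5 and 5027 in WT and 3231 and 4114 in the deletion, where the deletion library with IL-2 exceeded the WT control (log2 −0.26, SE 0.04, adjusted p = 4.4e-07). The bin with the highest coverage of the locus, 2 kb into the gene, had 5775 and 7868 in WT and 4367 and 5646 in the deletion (log2 −0.44).

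Within the gene the change varied along the body. In the 5′ block, chr2:11643001-11667000, 12 of 18 shared bins fell and none rose. The largest fall was 6 kb into the gene, from 1392 and 1754 in WT to 896 and 988 in the deletion (log2 −0.74, SE 0.06, adjusted p = 3.4e-18). The bins 12 and 13 kb into the gene did not pass the test (log2 −0.01 each), with 912.5 and 1125 in WT against 937.5 and 1086 for the first of them. In the 3′ block, chr2:11684001-11693000, 2 shared bins fell and 3 rose. The bin 49 kb into the gene had 678 and 526 in WT and 1037 and 908 in the deletion, with no overlap (log2 0.70, SE 0.07, adjusted p = 3.6e-15). The Il15ra start bin, 63 kb from the Il2ra promoter, rose from 3154 and 2770 to 3652 and 3445 (log2 0.26, SE 0.05). Il15ra encodes the alpha chain of the IL-15 receptor. On the other side, the bin inside Rbm17 that lies 40 kb upstream of the promoter bin fell (log2 −0.30). The bin 35 kb upstream fell too (log2 −0.70). The bin 39 kb upstream, which holds the annotated end of Rbm17, was not listed in the deletion control.

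**Figure D2:**
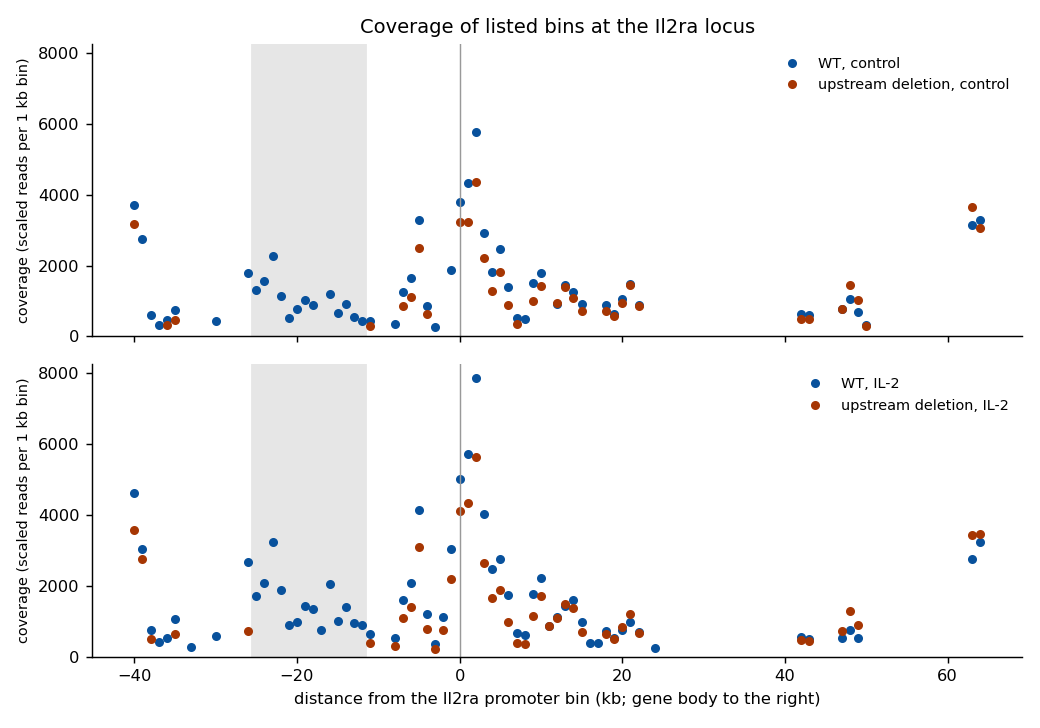
Scaled coverage (reads per 1 kb bin, linear axis) of every listed bin against distance in kb from the Il2ra promoter bin, in control (top) and IL-2 libraries (bottom), with WT in blue and the deletion in brown. Grey marks the 14 bins listed in WT and in neither deletion library; from the promoter to 10 kb into the gene the deletion lies below WT, and at 48 and 49 kb it lies above.

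Contacts at the locus were then split by the position of their anchors. Ratios to WT are of single libraries, scaled for depth, with exact 95% intervals that cover counting error only. The region from Rbm17 to the Il15ra start had 224 and 393 listed pairs in WT and 72 and 117 in the deletion. Of the WT pairs, 71 in control and 176 with IL-2, with 2234 and 6547 contacts, had an anchor in the unlisted run. Over the 52 pairs listed in all 4 libraries, none of which touches the run, the deletion held 0.849 of the WT contacts in control (0.797 to 0.905) and 0.745 with IL-2 (0.705 to 0.787).

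The ratios varied between classes of anchors, and whether the classes differ was not tested. Pairs between the bins just upstream of the promoter and the 5′ block of the gene held 717 and 1161 contacts in WT and 480 and 620 in the deletion (14 pairs), ratios of 0.767 (0.681 to 0.862) and 0.678 (0.614 to 0.749). Pairs within the 5′ block gave 0.824 (0.738 to 0.919) and 0.808 (0.733 to 0.889) over 19 pairs. Pairs from the promoter bin to the 5′ block gave 0.970 (0.800 to 1.18) and 0.849 (0.718 to 1.003) over 6 pairs, intervals that include 1. Pairs from the bins just upstream to the promoter bin gave 0.839 (0.681 to 1.033) in control and 0.630 (0.521 to 0.759) with IL-2, over 4 pairs. The 3 pairs between the 3′ block and the Il15ra side held 85 and 75 contacts in WT and 95 and 91 in the deletion, ratios of 1.28 (0.945 to 1.74) and 1.54 (1.12 to 2.12).

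Contacts that span the unlisted run, between the Rbm17 side and Il2ra, were listed in the deletion as well. The first pair joined the Rbm17 bin 40 kb upstream to the Il2ra promoter bin. It held 38 contacts in WT control, 89 in WT with IL-2, and 38 and 37 in the deletion. From the same Rbm17 bin to the bin 2 kb into Il2ra, the counts were 47 and 105 in WT and 44 and 44 in the deletion. The pair to the bin between them, 1 kb into the gene, went another way, with 33 and 63 in WT and 31 and 50 in the deletion. The control ratios of the first and second pair were 1.15 (0.711 to 1.84) and 1.07 (0.694 to 1.65), intervals that include 1, and their IL-2 ratios were 0.528 (0.350 to 0.783) and 0.532 (0.366 to 0.764). The pair between them had ratios of 1.08 (0.637 to 1.81) and 1.01 (0.681 to 1.485), and none of the 3 passed the test across all loops. Over all 5 such pairs listed in all 4 libraries, the ratios were 1.01 (0.811 to 1.245) in control and 0.659 (0.552 to 0.784) with IL-2. The IL-2 to control ratio of these 5 pairs was 1.73 (1.45 to 2.07) in WT and 1.13 (0.917 to 1.40) in the deletion. These 5 pairs are those that stayed listed in the deletion, out of 34 and 65 spanning pairs in WT and 7 and 20 in the deletion. Over every listed spanning pair, with unlisted pairs at 0, the ratios to WT were 0.252 and 0.324, and with unlisted pairs at 19 contacts 0.975 and 0.777. The IL-2 to control ratio then was 2.19 in WT and 2.815 in the deletion with unlisted pairs at 0, the reverse order, and 1.34 and 1.07 with them at 19. Whether this ratio differs between genotypes was not tested.

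In the test across all loops, 3 of the 52 pairs passed, all lower, and 41 of 52 estimates were below 0 (median log2 −0.40, against 0.01 over all loops). The pair from the bin 4 kb upstream to the bin 2 kb into the gene held 67 and 114 contacts in WT and 42 and 44 in the deletion, with no overlap (log2 −0.79, SE 0.19, adjusted p = 0.021). The pair from the bin 5 kb upstream to the bin 2 kb into the gene held 109 and 177 against 66 and 92 (log2 −0.57, adjusted p = 0.049), and the pair from 2 to 9 kb into the gene 67 and 113 against 34 and 55 (log2 −0.73, adjusted p = 0.043). With the coverage of the anchors as an offset, these values were −0.21, −0.06 and −0.11 and none passed. The median of the 52 pairs was then 0.14, against 0.05 over all loops.

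Farther along chromosome 2, coverage rose mainly at 2 genes, Prkcq and Gata3. Of the 31 shared bins less than 50 kb from the promoter, 22 fell and 3 rose. Of the 65 bins at 50 to 500 kb, 55 rose and 2 fell (median log2 0.27), and of the 19 bins at 500 to 2000 kb, 16 rose and 1 fell (0.37), against a median of 0.00 on other chromosomes. Most of these bins belong to Prkcq, which encodes protein kinase C theta of T cell receptor signalling, where 53 of 58 bins in or near the gene rose (median 1.22-fold). At its upstream side, 481 kb from the Il2ra promoter, a bin had scaled coverage of 1858 and 2037 in WT and 2818 and 3084 in the deletion, with no overlap (log2 0.60, SE 0.05, adjusted p = 3.8e-18). At Gata3, a T cell transcription factor gene, all 14 shared bins rose, which make up most of the 19 at 500 to 2000 kb. The highest change there was from 1557 and 1396 to 2535 and 2608 (log2 0.80, SE 0.05, adjusted p = 3.9e-23). At Pfkfb3, a glycolysis regulator between Prkcq and Rbm17, 1 of 5 bins rose and 2 fell. The 1 shared bin of Taf3 fell (log2 −0.14), and 2 bins at Vim rose. Atp5c1/Kin and Trdmt1, with 1 bin each, did not pass (0.06 each). Beyond 10000 kb on chromosome 2 the median was −0.01.

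**Figure D3:**
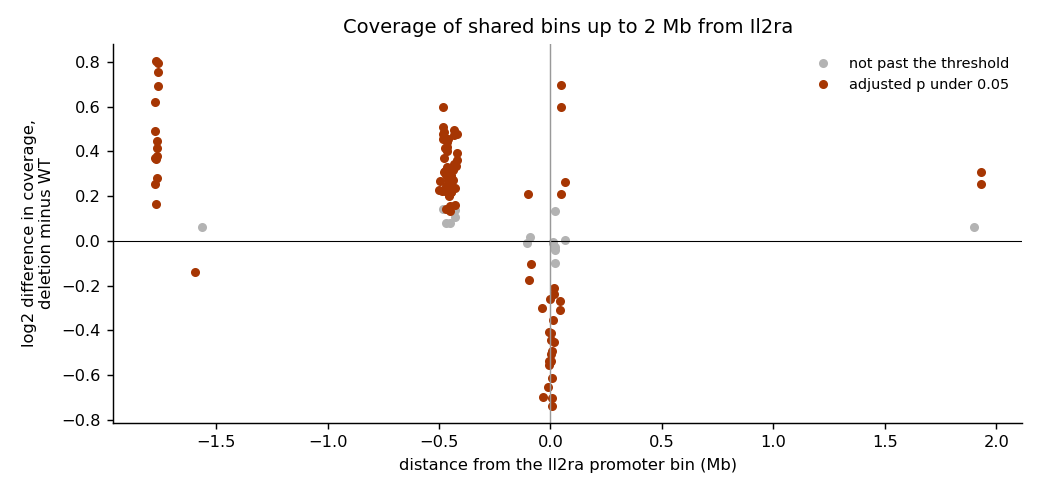
Log2 difference in coverage (deletion minus WT, fitted over control and IL-2) of each shared bin against distance in Mb from the Il2ra promoter bin, with bins past an adjusted p of 0.05 in brown. Bins next to the promoter lie below 0, and the groups near −0.5 Mb (Prkcq) and −1.8 Mb (Gata3) lie above.

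Summed contacts at gene ends showed the same order around Il2ra. Prkcq held 951 and 1419 scaled contacts in WT and 1213 and 1699 in the deletion over 27 loops (log2 0.30, SE 0.05, adjusted p = 4.1e-07). Il2ra had 11 loops, with summed contacts of 481 and 660 for WT against 466 and 489 for the deletion (log2 −0.26, SE 0.07, adjusted p = 0.0063), a difference of −0.05 in control and −0.43 with IL-2. Il15ra, with 2 loops, held 56.3 and 36.7 against 74.6 and 65.7 (log2 0.60, SE 0.17, adjusted p = 0.043). Taf3 and the pair Atp5c1/Kin share 1 loop, with 21.4 and 35.9 against 37.3 and 33.9 (log2 0.29, adjusted p = 0.662). Gdi2, which the list of neighbours also held, lies on chromosome 13 in this annotation and did not pass (log2 −0.41, adjusted p = 0.511).

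Pairs that were strong in one genotype and unlisted in the other were rare. Of 9947 pairs with at least 50 contacts in both WT libraries, 6 (0.0603%) were listed in neither deletion library, and all 6 had an anchor in the unlisted run upstream of Il2ra. The highest joined the bin 23 kb upstream to the bin 2 kb into Il2ra, with 62 contacts in control and 119 with IL-2. In the other direction, of 9339 pairs of a like scaled count in both deletion libraries, 1 (0.0107%) was listed in neither WT library. It joined Mndal to Ifi203, interferon-inducible genes of a multigene cluster, between the bins that start at chr1:173879001 and chr1:173942001, with 87 and 58 contacts in the deletion. Reads of such related genes may be assigned to either copy, which was not tested.

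The largest loop changes lay on chromosome 11, away from Il2ra. The loop from H2bu2, a histone H2B gene, to the bin of H2aw and Trim17 held 56.3 and 56.9 scaled contacts in WT and 208 and 201 in the deletion, with no overlap (log2 1.85, SE 0.15, adjusted p = 3.4e-32). Of its anchors, the H2bu2 bin rose (log2 0.84) and the H2aw/Trim17 bin fell (log2 −0.12). The bin next to the H2bu2 anchor fell (log2 −0.70). The loop from the Igtp start bin to the Irgm2 start bin rose from 119 and 82.4 to 260 and 249.4 (log2 1.35, SE 0.12, adjusted p = 7.0e-23). The loop between the bins that follow them, 1 kb further in each gene, fell from 97.8 and 68.0 to 27.1 and 29.1 (log2 −1.54, SE 0.21, adjusted p = 5.6e-09).

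At Irgm2 this opposite movement was in coverage too. The start bin had 6030 and 6243 reads in WT and 7879 and 7180 in the deletion, before scaling (log2 0.64). The next bin fell from 4555 and 3874 scaled reads to 1497 and 1360, the largest fall among all bins (log2 −1.56, SE 0.05, adjusted p = 3.5e-44). Among 56 pairs of adjacent bins that both changed by at least 1.5-fold, those at Irgm2 and H2bu2 were the 2 that moved in opposite directions. Of the 90 called loops, 9 lay in the neighbourhood from just before Igtp to just past Irgm2, 7 higher and 2 lower. After an offset for anchor coverage, the rises at H2bu2 and between the Igtp and Irgm2 start bins passed (log2 1.56 and 1.19), as did 2 other loops. Of these 2, 1 joined the Igtp start bin to the bin after the Irgm2 start. Its log2 value was 1.04 with the offset and 0.10 without it, where it did not pass. The fall between the bins that follow the starts was −0.72 with the offset and did not pass.

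The most bins changed by at least 1.5-fold in 1 neighbourhood lay at Satb1, which encodes a chromatin organiser of T cells. A neighbourhood of bins runs from its first to its last such bin, with at most 50 kb between them in turn. Its span was set by these same values, so counts of bins within it are descriptions and no test. Over all bins 20.6% rose and 18.8% fell. At chr17:51817001-51907000, which covers part of the gene and its upstream side, 43 of 46 shared bins rose and none fell (median log2 0.60), 27 of them by at least 1.5-fold. The highest, 48 kb from the gene, went from 1246 and 1513 to 2609 and 3098, with no overlap (log2 1.05, SE 0.05, adjusted p = 9.4e-31). A further 13 of 14 bins rose at chr17:52034001-52079000. Of the called loops, 5 lay inside Satb1, all higher (log2 0.55 to 0.97), and 2 more lay near it, also higher. At the gene's own end bin the contacts were 1014 and 1007 in WT and 1132 and 1112 in the deletion, which did not pass (log2 0.15, adjusted p = 0.069). Over the bins of all its annotated starts, 4 bins with 148 loops, Satb1 rose from 7005 and 7267 to 8038 and 8143 (log2 0.18, SE 0.05, adjusted p = 0.018), an alternative chosen after seeing the data.

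The other named bins that rose were near Pdzd8, an endoplasmic reticulum contact site protein, where 1 bin went from 96.7 and 102 to 517 and 519 (log2 2.38, SE 0.10, adjusted p = 5.6e-36) and its neighbour rose by 1.07 on the log2 scale. Ablim1, an actin-binding protein gene, rose from 371 and 366 to 853 and 726 (log2 1.09). Bins in Kat2b, a histone acetyltransferase gene, rose by 1.01 and 0.98 on the log2 scale, and a bin in Pitpna by 0.95. Deletion and WT libraries overlapped at none of these bins.

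Falls of like size lay on the 3′ side of Lat, the adaptor of the T cell receptor. A bin 8 kb from the gene had scaled coverage of 2566 and 2406 in WT and 1200 and 1220 in the deletion (log2 −1.04, SE 0.05, adjusted p = 4.4e-29). The neighbourhood at chr7:126353001-126360000 was bounded by its own changes, and its 6 shared bins each fell by at least 1.5-fold. The loop from the bin 8 kb away into Lat fell from 94.8 and 68.8 to 33.9 and 42.1 scaled contacts (log2 −1.09, SE 0.20, adjusted p = 0.00020). Bins in Hlcs (log2 −0.99), Iqsec2 (−0.98), Cog1 (−0.98), near Larp1 (−0.94) and in Mgst2 (−0.87) fell as well. At Slc1a2, a glutamate transporter gene, the 7 shared bins between chr2:102724001 and chr2:102741000 fell (median log2 −0.69), 6 of them by at least 1.5-fold, which bounded the span. In all, the 201 bins changed by at least 1.5-fold (134 higher, 67 lower) fell into 95 neighbourhoods, 54 of which held 1 such bin.

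Loops at other named genes moved with their neighbourhoods. Within Srebf1, a regulator of sterol and fatty acid synthesis, a loop fell from 90.9 and 110 scaled contacts to 39.6 and 43.2, with no overlap (log2 −1.28, SE 0.18, adjusted p = 2.8e-08). Between the cytokine receptor genes Ifnar2 and Il10rb a loop fell from 76.0 and 60.3 to 30.5 and 32.4 (log2 −1.11, adjusted p = 0.0012), and all 5 called loops at Ifnar2 were lower. The falls from Rps18/Vps52 to near H2-K1 (log2 −1.12), within Syne3 (−1.07), near Il10rb (−1.05) and to Itgb2 (−1.04) were of similar size. Rises joined Asb8 to Ccdc184 (1.24), Pdzd8 to its upstream bin (1.22), and bins near Tmsb4x (1.11), near Tnfaip3 (1.10) and near Ms4a6b (1.07). Of the 46 loops that rose, 34 had rising coverage at both anchors, and of the 44 that fell, 33 had falling coverage at both.

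Among gene ends, the largest rises were at Gm33887 (log2 1.10, 1 loop), Syngr2 (0.99, 1 loop), Irgm2 (0.72, 22 loops), Degs1 (0.71, 3 loops) and H2bu2 (0.64, 5 loops). Irgm2 went from 1155 and 981 scaled contacts in WT to 1870 and 1640 in the deletion, with no overlap (SE 0.05, adjusted p = 2.5e-35). Rarg, Il15ra, Kbtbd11, Tecpr1 and Fam240a followed, with log2 values of 0.56 to 0.61.

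The largest falls were at Nr4a2, a nuclear receptor induced by T cell receptor signals, with 46.6 and 45.1 scaled contacts in WT and 26.8 and 21.9 in the deletion on 1 loop (log2 −0.92, SE 0.21, adjusted p = 0.012). Idh3b (−0.88, 1 loop) and the pair Nhej1/Slc23a3 (−0.83, 1 loop) were next. Lad1 rested on 11 loops and went from 697 and 627 to 454 and 423, with no overlap (log2 −0.59, SE 0.07, adjusted p = 6.6e-14). Its neighbour Tnni1 fell by 0.68 on the log2 scale, and H2bc11, Matr3, Trmt10c, Commd5 and Soat2 fell by 0.52 to 0.60. With DESeq2, Irgm2, Lad1, Gimap8, Gimap7 and Gimap3 were the 5 that passed.

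**Figure D4:**
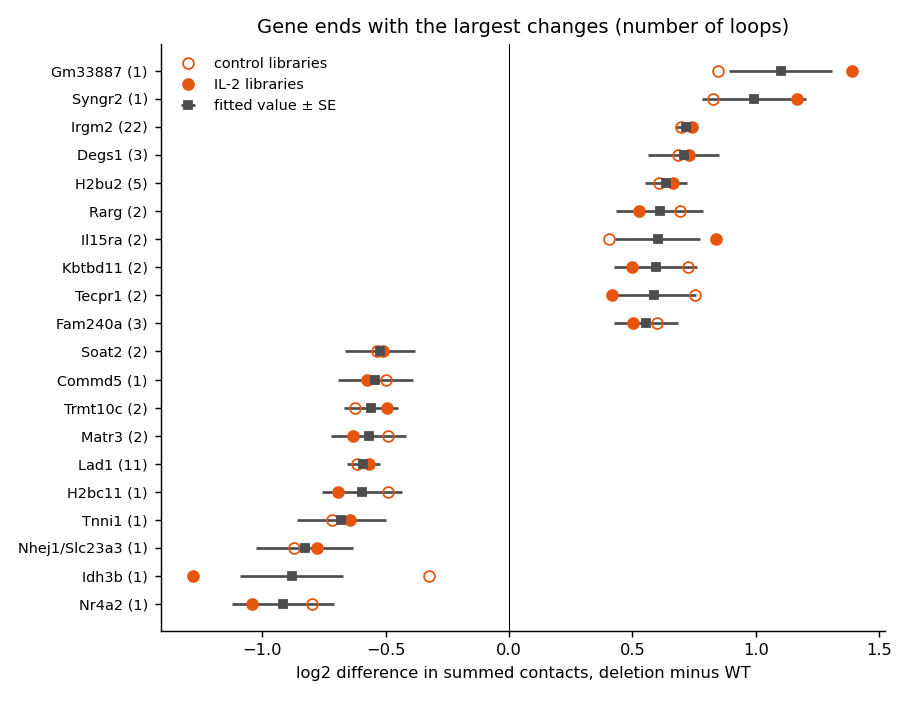
Log2 difference in summed contacts (deletion minus WT) for the 10 gene ends with the largest rises and the 10 with the largest falls, with the number of loops in brackets, as the fitted value with its SE (squares) and in control (open circles) and IL-2 libraries (filled circles). Irgm2 and Lad1, with 22 and 11 loops, lie close together in both treatments, and Idh3b, with 1 loop, spreads from −0.32 to −1.28.

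The genes of IL-2 signalling were measured next, as contacts and as coverage of their end bins. Coverage passed at 1367 of 3150 gene-end features (43.4%), 692 (22.0%) higher and 675 (21.4%) lower, with a median log2 of −0.00. These values were scaled within the gene-end features, which sets that balance. Scaled over all bins, 390 of the 3361 bins at gene ends rose and 922 fell (median log2 −0.04), so the coverage of the lists is read relative to other gene ends. Of the 12 measured features of the gamma chain receptors, kinases and STATs, Il15ra and Il4ra were among those that rose in contacts and Il2ra fell, with a median of 0.19 against 0.00 over all gene ends. Il4ra, the IL-4 receptor alpha chain, held 3376 and 3919 scaled contacts in WT and 4031 and 4589 in the deletion over 67 loops (log2 0.24, SE 0.04, adjusted p = 1.1e-07). In coverage 6 of the 12 rose, among them Stat5a/Stat5b (0.23) and Jak1 (0.23), and Il2ra fell (−0.22).

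None of the 21 measured IL-2 and STAT5 target genes passed in contacts, with a median of 0.04. Over all gene ends 4.3% passed in contacts, so none of 21 is near that share. In coverage 11 of the 21 rose and none fell (median 0.09), against 22.0% and 21.4% over all gene ends. Nfil3, a transcription factor, had 1703 and 2347 in WT and 2341 and 3231 in the deletion (log2 0.46, SE 0.04, adjusted p = 2.2e-20), so each deletion library lay above WT of the same treatment while the ranges overlapped. Mcl1, which protects from cell death, had 2396 and 1548 against 2972 and 1761 (log2 0.25). Cish, a feedback inhibitor induced by STAT5, had 13703 and 19625 against 14175 and 22198 (log2 0.12).

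Genes of naive and memory T cells rose in coverage at 7 of 10 features, with none lower, and in contacts at 2 of 8. Over all gene ends 22.0% rose and 21.4% fell in coverage, and 2.78% rose and 1.52% fell in contacts. Ccr7, a lymph node homing receptor, held 555 and 489 scaled contacts in WT against 663 and 574 in the deletion, with no overlap (log2 0.24, adjusted p = 0.0081). Of the 14 activation and checkpoint features, 2 fell in contacts and none rose. They were Nr4a2 and Batf3, an AP-1 family factor that went from 538 and 648 to 452 and 550 (log2 −0.24, adjusted p = 0.011). In coverage 4 of the 14 rose, Egr3, Tnfrsf9, Cd83 and Irf4, and 5 fell, among them Nr4a2 (−0.40), Batf3 (−0.23) and Pdcd1 (−0.21).

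Among AP-1, NF-kB and immediate early genes, 3 of 22 rose in contacts and none fell, and 9 rose and 1 fell in coverage. The shares over all gene ends were 2.78% higher and 1.52% lower in contacts, and 22.0% and 21.4% in coverage. Tnfaip3, a brake on NF-kB, held 1270 and 862 contacts in WT and 1626 and 1088 in the deletion over 26 loops (log2 0.35, SE 0.05, adjusted p = 6.0e-09). Nfkbia, the NF-kB inhibitor, held 724 and 517 against 898 and 626 (log2 0.30, adjusted p = 0.00012), and Btg1, an antiproliferative gene, rose by 0.16 on the log2 scale. At Tnfaip3 and Nfkbia the WT control lay above the deletion with IL-2, so the ranges overlapped, while at Btg1 (1431 and 1405 against 1636 and 1526) they did not. Of 17 interferon response features, Irgm1 and Igtp were among those that rose in contacts and none fell. Igtp fell in coverage (−0.11) while its contacts rose (0.18).

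Of 19 T cell receptor and identity features, Runx1 rose (log2 0.53) and Lat fell (−0.19) in contacts. In coverage 4 rose and 5 fell of 20, shares near those over all gene ends (22.0% and 21.4%). Lck, the kinase that starts T cell receptor signalling, fell in coverage from 2113 and 2142 to 1641 and 1771 (log2 −0.32, adjusted p = 6.3e-10). The counts that follow stand beside 4.3% of all gene ends called in contacts and 43.4% in coverage. For lists this small, no call in contacts is near that share. None of 7 cytotoxic effector features passed in contacts, and 1 of 8 in coverage (Ccl4, lower). None of 10 growth and nutrient features passed in contacts, 1 rose in coverage and 2 fell, among them the amino acid transporter Slc7a5 (−0.35). Of 16 cell cycle features, Rbl2, a retinoblastoma family gene, rose in contacts (0.29), and 5 rose and 4 fell in coverage. None of 13 features of looping factors and cofactors passed in contacts, with 3 higher and 1 lower in coverage. Of 11 housekeeping features, Rpl3 fell in contacts (−0.30), and 1 rose and 3 fell in coverage. The X-linked genes Kdm5c (−0.31) and Eif2s3x (−0.41) fell in coverage, Ddx3x did not pass (0.07), and no loop on chromosome Y was listed.

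Called loops and large bin changes were uneven over the chromosomes, much of it from a few neighbourhoods, while the share of called bins was more even. No loop passed on chromosomes 3, 5, 9, 14 and 18, which held 496 to 2351 loops each, at a share of 0.227% over all loops. On chromosome 16, 10 of 859 (1.16%) passed, of which 5 lay at Ifnar2 and 3 near Il10rb. Of the 201 bins changed by at least 1.5-fold, 44 lay on chromosome 17 (3.13% of its bins) and 1 on chromosome 9 (0.0754%). Of those 44, 27 lay in the neighbourhood at Satb1 described above and 5 at chr17:52034001-52079000. The share of bins past the threshold ranged from 34.4% on chromosome 5 and chromosome 18 to 48.5% on X, and the median log2 change from −0.03 to 0.06. Outside genes 1898 bins rose and 1180 fell (median log2 0.03). By length, 52 of 14664 loops of 5 to under 10 kb passed (0.355%) and 1 of 1051 over 100 kb (0.0951%). The median change was 0.00 for the shortest class and 0.07 for the longest.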

How the data were processed

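H3K27ac HiChIP of 4 libraries was used. The submitters' processing notes name CASAVA, HiC-Pro, Bowtie2 2.2.6 and the build mm10 (GRCm38). The deposited tables, in the FitHiChIP layout per the file headers, give for each pair of 1 kb bins an unnormalised contact count and, for each bin, a coverage count. No listed pair had under 20 contacts, so folds of low pairs are truncated. Both counts were tested with edgeR 4.0.16 (R 4.3.3; quasi-likelihood, TMM factors, genotype and treatment as terms, Benjamini-Hochberg over all features, two-sided). The SE is derived from the test statistic. For loops the common dispersion was 9.77e-05, close to Poisson noise. "Scaled" values are counts divided by TMM-effective library sizes (1584505 to 2108243 contacts over shared loops) and multiplied by their mean. Alternatives used DESeq2 1.42.0, other scalings, filters and terms. Genes came from RefSeq (GRCm38.p6, either annotated gene end). Genes, loops and bins were named by size of change (10, 8 and 8 per direction, same sign in both treatments, at most 2 per 50 kb), with list members past the threshold. The members and lists were chosen with earlier results of these data known. The fits were tested on simulated counts. The other samples were not analysed here. Some genes that the naming rule covers are not reported here.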

Additional observations from a re-analysis of the deposited data

Results flagged for a closer look

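Opposite directions in control and with IL-2 were common among loops, where the sign was the same at 56.3%. Listed here are those among the pairs from the Rbm17 side to Il2ra and among the gene ends of the Il2ra neighbourhood. The difference between treatments was not tested, since each genotype and treatment has 1 library. For the pair from the Rbm17 bin 40 kb upstream to the Il2ra promoter bin, the control ratio to WT was 1.15 (0.711 to 1.84). Its IL-2 ratio was 0.528 (0.350 to 0.783). The pair from the same Rbm17 bin to the bin 2 kb into Il2ra was at 1.07 (0.694 to 1.65) and 0.532 (0.366 to 0.764) times. Both control intervals include 1. The pair to the bin that lies between these, 1 kb into Il2ra, was at 1.08 and 1.01 times. The loop shared by Taf3 and by Atp5c1/Kin differed by 0.80 in control and −0.08 with IL-2 on the log2 scale, on 22 to 43 contacts.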

How the results depend on the processing

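The counts of calls depended on the treatment term and the tool. For loops (90), DESeq2 and the fit with no treatment term each gave 2, an offset of anchor coverage gave 4, and leaving out each library in turn, with no treatment term, gave 0 to 6. For bins (9201), DESeq2 gave 2418, a test for change beyond 1.2-fold, chosen after seeing the data, gave 800, and the fit with no treatment term and those without each library gave 0, with 1798 and 563 to 1261 at an unadjusted p under 0.05. For gene-end contacts (130), DESeq2 gave 5, no treatment term 0, leaving out each library 0 to 3, and coverage of the gene-end bins in place of contacts 1367. RLE factors, library sizes alone, a loess offset, a mean of at least 40, and for loops scaling by length and leaving out chromosomes 2, X and Y, kept each count within 1.5 times. With library sizes alone, 56 gene ends were higher and 54 lower, against 84 and 46, and 4283 bins higher and 4621 lower. Starts of transcription alone, also chosen after seeing the data, gave 89 gene ends. The causes were not tested. The 52 pairs of the Il2ra locus listed in all 4 libraries gave ratios to WT of 0.849 in control and 0.745 with IL-2. Over every listed pair outside the unlisted run these were 0.510 and 0.535 with unlisted pairs set to 0, and 0.949 and 0.842 with them set to 19. With library sizes taken from bin coverage in place of loop contacts, the ratios over the 52 pairs were 0.883 and 0.800. That scaling does not adjust for the coverage of the anchors. With anchor coverage as an offset, 14 of the 52 estimates were below 0 and their median log2 was 0.14, against 0.05 over all loops. Of the named results, Rbl2 changed sign, to −0.0324 without the WT IL-2 library and −0.0233 without the deletion control, and no other did. No paired analysis was possible beyond the treatment term, which already sets the genotypes side by side within each treatment, because the labels give no replicate numbers and each genotype and treatment has 1 library. The names of all 4 deposited tables carry the same replicate tag. Counts limit what loops can show, since the median shared loop held 33 to 45 contacts, near the listing limit of 20.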

Other observations

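Some gene families stood out only after their values had been seen, so their counts are descriptions without a test. Over all gene-end features, 2.78% rose and 1.52% fell in contacts, and 22.0% rose and 21.4% fell in coverage. Of 8 measured Gimap genes, GTPases of lymphocyte survival that lie side by side on chromosome 6, 7 rose in contacts and in coverage, and the medians were 0.25 and 0.28 on the log2 scale. Gimap8 had the largest rise (log2 0.38, adjusted p = 1.3e-13) and Gimap5, with 1 loop, did not pass (0.04). The genes are paralogs, so their reads may be split between them, which was not tested. Of 50 features of ribosomal protein genes, 5 fell in contacts and none rose, and of 51 in coverage 22 fell and 2 rose, with medians of −0.07 and −0.08. Rps18 (−0.28), Rpl3 (−0.30), Rpl8 (−0.28), Fau (−0.26) and Med22/Rpl7a (−0.47) were the 5 that fell in contacts. Of 45 histone gene features, 4 fell in contacts (H2bc9, H2bc11, H3c8 and H4c9) and H2bu2 rose, and of 46 in coverage 19 fell and 5 rose. Many histone genes are similar copies, so their reads may be split between them and their values are uncertain, which was not tested.

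At the Ms4a cluster, chr19:11408001-11501000, 37 of 42 shared bins rose and none fell, with a median of 0.33 on the log2 scale. Near Chd7, a chromatin remodeller gene, all 10 shared bins at chr4:8902001-8917000 rose (median 0.65).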
